A study of Mus musculus with 20 samples.

Results

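Hopx-knockout (KO) and Hopx-wildtype (WT) long-term haematopoietic stem cells (LT-HSC) were compared by RNA sequencing. The comparison used 3 KO and 4 WT libraries, 7 of the 20 in the series, picked by the genotype and the sorted cell type in their labels. All animals were C57BL/6 mice aged 8 weeks, and the cells were sorted from bone marrow by flow cytometry and made into Nextera XT libraries. KO animals carried the Hopx-knockout genotype and WT animals an intact gene, and no other allele or treatment is labelled. The other 13 libraries, 6 of type 2 (MPP2) and 7 of type 3 (MPP3) multipotent progenitors of both genotypes, were used to estimate the spread between libraries and for 1 test of a difference. The labels do not state how the knockout allele was built, which surface gate was used for the sort, or how many animals stand behind each library. P-values therefore measure the spread between these libraries, which may be partly technical.

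LT-HSC sit at the top of the blood hierarchy, are mostly out of cycle, and can rebuild all blood lineages after transplantation. Multipotent progenitors lie below them, with MPP2 biased towards megakaryocyte and erythroid output and MPP3 towards myeloid output. Hopx encodes a small protein with a homeodomain that does not bind DNA. It works through partners, among them serum response factor (SRF) and histone deacetylases, and it marks slowly cycling stem cells in several epithelia.

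Reads in genes numbered 12094117 to 14647699 per LT-HSC library, and 17609 to 19596 genes had at least 1 read. Values below are reads divided by the authors' size factor of that library, so that 1 read is worth 0.878 to 1.09. Replicate numbers are names in accession order and pair nothing. By Xist and Y-linked genes, KO replicates 1 and 2 and WT replicate 3 came from females and the other 4 from males, so sex and genotype are partly confounded. The library numbers in the labels put KO replicates 1 and 2 and WT replicate 1 in the range 101 to 106, KO replicate 3 and WT replicate 2 in 115 to 120, WT replicate 3 in 52 to 54 and WT replicate 4 in 81 to 88.

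The labelled cell type carried its defining genes in every library. All 8 LT-HSC markers had reads in all 7 libraries, with summed values of 17100 to 22400 in KO and 18400 to 25700 in WT. Procr, the endothelial protein C receptor used to gate stem cells, ranged from 277 to 1270, and Slamf1 (CD150) from 742 to 1250. Mecom and Hlf, transcription factors of self-renewal, ranged from 738 to 1640 and from 1200 to 3540. Defining markers of stroma were near 0, with summed values of at most 13.1, with none of the 4 genes above 0 in every library. Of the 5 T and NK cell markers Cd3g and Gzma had no read, and Cd3d and Cd3e had at most 4.24. Nkg7, a granule protein of cytotoxic cells, had 1400 to 3250 in all 7 libraries. Other marker sets were not near 0. Megakaryocyte markers summed to 8070 to 35600 in KO and 2980 to 21800 in WT. Erythroid markers summed to 1430 to 3510 and 899 to 2680, and B cell markers to 574 to 3260 and 774 to 934.

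Some libraries stood apart in other lineages, as the plot of cell-type lists by library shows. KO replicate 1 stood highest for most B-lineage transcripts, though not for all. Cd79b had 1320 there and 538 to 866 elsewhere, and Igkc had 8.71 there and 0 to 15.6 elsewhere. Vpreb3, a gene of early B cells, had 1240 in KO replicate 1, 2.12 in WT replicate 3 and 0 in the other 5 libraries. Ighm was at 607 in KO replicate 1 and at most 21.8 elsewhere, Dntt at 599 against at most 44.8, and Rag2 at 139 against at most 3.63. Some neutrophil genes were high in 1 library of each genotype. S100a8, a calprotectin subunit, had 13800 in KO replicate 1 and 6730 in WT replicate 2, and 1.83 to 285 in the other 5. The granule genes Ngp and Ltf had 706 and 62.7 in WT replicate 2 but 0 in KO replicate 1. Car1, the carbonic anhydrase of young red cells, had 19900 in KO replicate 2 and 3080 in WT replicate 3 and at most 18.0 in the other 5. In bulk samples such as these, fewer cells of a type and less RNA per cell cannot be told apart.

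**Figure D1:**
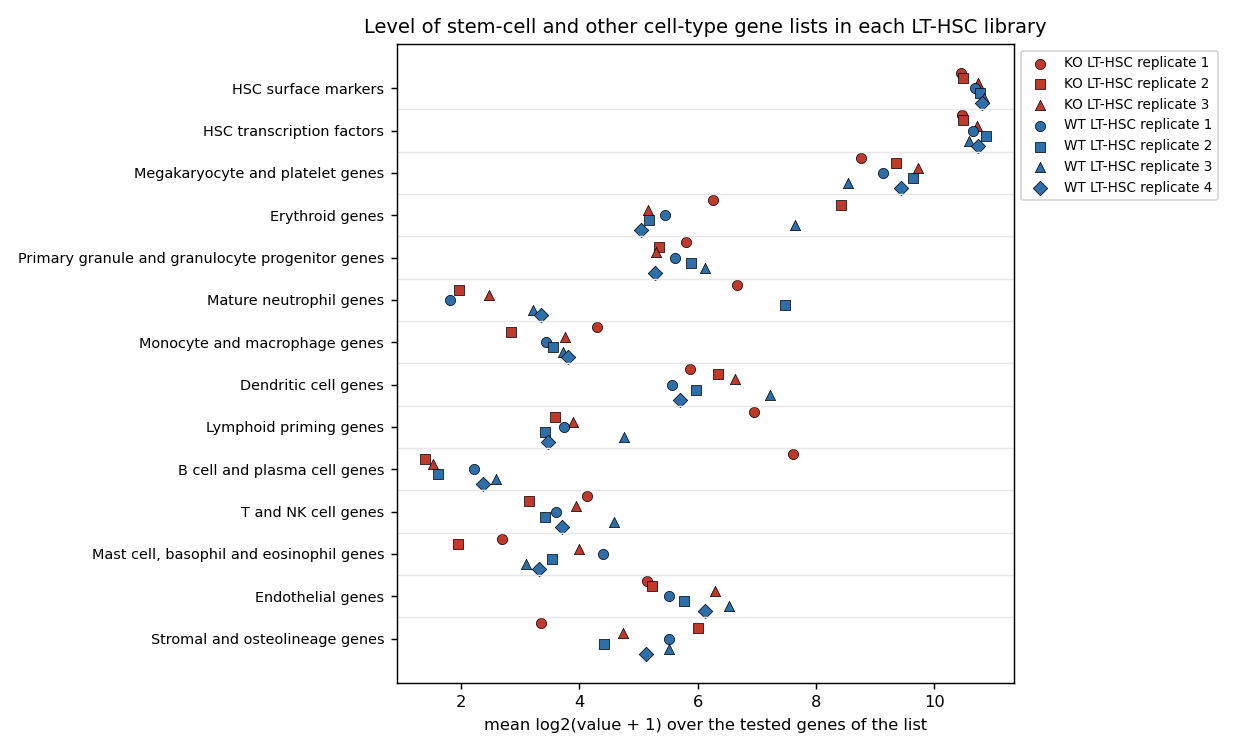
Mean log2(value + 1) of 14 gene lists (vertical axis) in each of the 7 LT-HSC libraries (points; KO red, WT blue, marker shape by replicate). The HSC lists lie within 10.5 and 10.9 in all 7 libraries, while KO replicate 1 stands at 7.60 for B cell genes, with the other libraries between 1.39 and 2.59.

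The targeted gene was measured first. Hopx (ENSMUSG00000059325) lies on chromosome 5 at 77086988 to 77115121, minus strand, in GRCm38. It had 0 reads in each of the 3 KO LT-HSC libraries and in all 9 KO libraries of the series. In WT LT-HSC its value was 30.2, 58.9 and 37.1 in replicates 1 to 3, from 33, 62 and 35 reads, and 0 in the library labelled WT replicate 4. KO and WT therefore overlapped at 0 in that library, where the limit that 0 reads allow (3 reads) is a value of 2.68. The WT mean was 31.6 ± 24.3 (SD, n = 4), at least 32.9-fold above the KO group, whose floor of 3 reads was taken over its 3 libraries and covers counting error only. The fitted log2 fold change was -4.03 (SE 1.08), with an adjusted p of 1 in limma. Without WT replicate 4 it was -5.37, with a limma adjusted p of 0.0274 in the fit that takes the spread from all populations. In limma on the LT-HSC libraries alone, the same omission gave an adjusted p of 0.996.

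A long non-coding gene on the opposite strand gave a different picture of that library. Hopxos (ENSMUSG00000087541, chromosome 5, 77094532 to 77102303, plus strand) overlaps Hopx exons. It had 0 reads in KO LT-HSC replicates 1, 2 and 3. In WT LT-HSC it had 5, 12, 14 and 5 reads in replicates 1, 2, 3 and 4, which are values of 4.58, 11.4, 14.9 and 4.46. All WT libraries thus lay above all KO libraries, WT replicate 4 included, with a log2 fold change of -3.14 (SE 0.91) and a limma adjusted p of 1. Hopxos was not absent from every knockout: KO MPP3 replicate 3, whose Hopx count was 0, had 5 reads. Whether counting used the strand is not stated in the labels, so reads of the overlapping exons cannot be told apart. Among the 18 tested genes within 1 Mb of Hopx, Hopxos was the single one with an unadjusted p under 0.05 or groups that did not overlap.

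RefSeq (GRCm38.p6) lists 2 start sites for Hopx, and both are shown because the lower one lies inside Hopxos. The 250 bases before each start are printed on the Hopx strand, at chr5:77115124-77115373 and chr5:77095268-77095517, with CG dinucleotides in capitals.
Hopx, distal start: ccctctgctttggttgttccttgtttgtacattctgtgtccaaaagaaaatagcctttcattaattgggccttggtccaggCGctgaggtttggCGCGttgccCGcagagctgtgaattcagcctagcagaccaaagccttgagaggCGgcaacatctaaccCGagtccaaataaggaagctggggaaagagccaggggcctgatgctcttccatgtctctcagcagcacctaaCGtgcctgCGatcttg
Hopx, proximal start: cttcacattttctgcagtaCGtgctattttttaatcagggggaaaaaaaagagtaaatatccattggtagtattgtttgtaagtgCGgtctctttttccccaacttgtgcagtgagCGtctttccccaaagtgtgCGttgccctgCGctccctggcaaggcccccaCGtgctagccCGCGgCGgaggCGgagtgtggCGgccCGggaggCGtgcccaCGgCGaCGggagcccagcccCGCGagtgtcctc
The distal stretch holds 8 CG dinucleotides and the proximal one 18, against a median of 6 over all promoters of the table.

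One gene of 17160 tested passed an adjusted p under 0.05, a share of 0.00583%. It was Sva (ENSMUSG00000023289, chromosome 6, 42038394 to 42042851), which encodes seminal vesicle antigen, a secreted protein known from the male reproductive tract. Sva had 200, 24 and 90 reads in KO replicates 1, 2 and 3, which are values of 218, 21.1 and 81.7. It had 0 reads in all 4 WT LT-HSC libraries, WT replicate 4 included. Sva rose in KO LT-HSC by at least 149-fold over a floor of 3 reads across the WT group, with a log2 fold change of 6.20 (SE 0.84) and a limma adjusted p of 0.0147. The female KO libraries, replicates 1 and 2, and the male one all carried it. The progenitors showed the same split: Sva had 19.1 to 119 in the 6 KO MPP2 and MPP3 libraries, and a single read in 1 of the 7 WT progenitor libraries. Sva was no longer called without KO replicate 1 (adjusted p = 0.235), KO replicate 3 (0.071) or WT replicate 3 (0.0721), in limma each time. The quasi-likelihood test of edgeR on the 7 libraries called 0 genes, with 542 at an unadjusted p under 0.05 and an adjusted p of 0.999 for Sva, while DESeq2 called 6 genes with Sva at 8.25e-06.

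**Figure D2:**
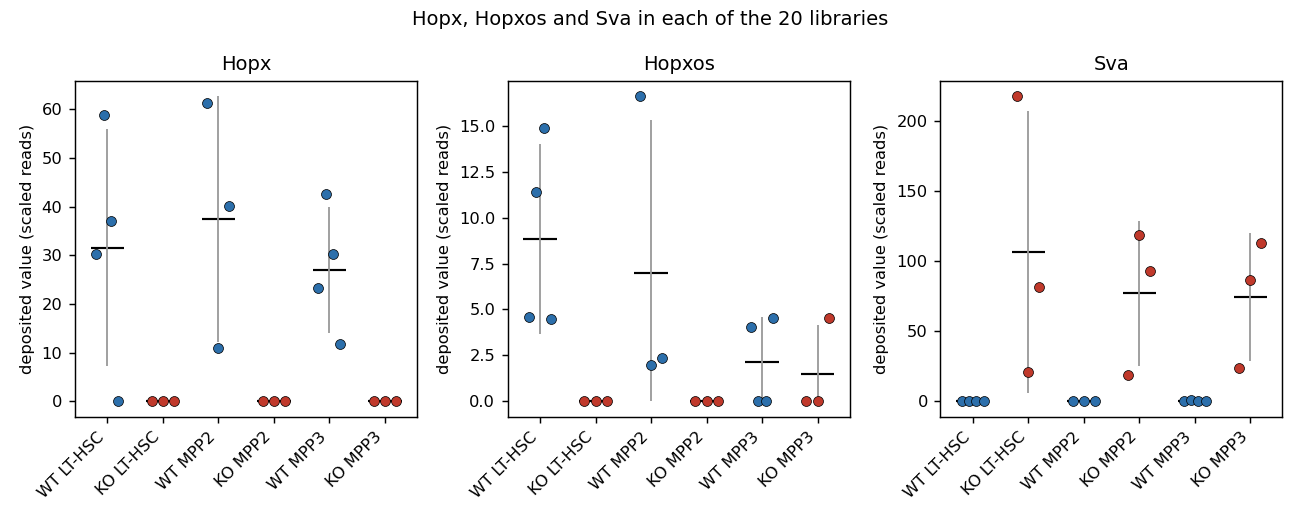
Deposited value (scaled reads, linear axis) of Hopx, its opposite-strand neighbour Hopxos and Sva in each of the 20 libraries, by genotype (WT blue, KO red) and sorted population, with the group mean (black bar) and SD (grey line, drawn down to 0 at most). Hopx is at 0 in all 9 KO libraries and in WT LT-HSC replicate 4, and Sva is at 19.1 or more in all 9 KO libraries.

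Beyond Sva, the smallest adjusted p was 0.162, so the genes described below did not pass the test and are given by their values. At an unadjusted p under 0.05 limma listed 151 genes higher in KO (0.88%) and 305 lower (1.78%). Together these are fewer than a threshold of 0.05 passes when no gene differs. In 340 genes (1.98%) all KO libraries lay above all WT libraries, and in 518 (3.02%) all lay below. With 3 against 4 libraries, such separations arise about this often when no gene differs. By sign, 8017 genes (46.7%) had a positive log2 fold change and 9066 a negative one. All these shares are the background for the list counts below. For the 12235 genes with a mean value of at least 50, the median SE was 0.38 on the log2 scale. The 95% interval of the fold change reached a median of 0.80 to either side, and for 63.3% of these genes it reached less than 1. A median gene of that level could thus hide a difference of up to 0.80 on the log2 scale. Fold changes are on the log2(value + 1) scale, which understates those of genes with few reads.

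**Figure D3:**
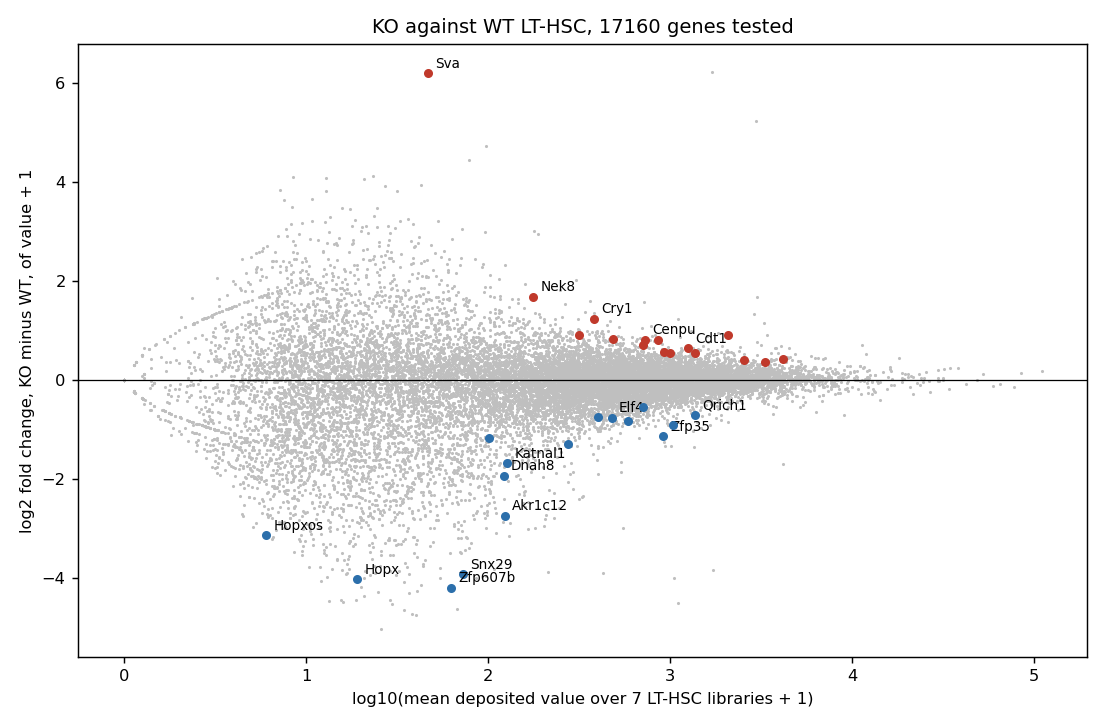
Log2 fold change (KO minus WT, of value + 1) against the log10 mean value over the 7 LT-HSC libraries for all 17160 tested genes (grey), with Hopx, Hopxos, Sva and the 15 higher (red) and 14 lower (blue) genes with non-overlapping groups described in the text. The pair of unlabelled grey points near the top right are sex-linked genes, Xist among them. Sva stands at 6.20 and Hopx at -4.03, while the 15 genes on the higher side lie between 0.37 and 1.69.

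Among protein-coding genes with a mean value of at least 50 and groups that did not overlap, the 15 of smallest p with higher values in KO are described here. They were picked for that separation, so the order of the libraries is no test. Cenpu, a subunit of the inner kinetochore, had the smallest unadjusted p. It measured 1070, 804 and 1030 in the KO libraries and 403, 648, 687 and 485 in WT, or 965 ± 142 (SD, n = 3) against 556 ± 134 (SD, n = 4), a log2 fold change of 0.82 (SE 0.22). Cry1, a repressor of the circadian clock, measured 729, 505 and 468 in KO and 282, 312, 157 and 223 in WT, a log2 fold change of 1.24 (SE 0.34). Chek1, the kinase that restrains cells with stalled replication forks, measured 1310, 1170 and 919 in KO and 753, 462, 639 and 750 in WT (0.81, SE 0.27). Timeless, which protects forks together with Tipin, measured 1100, 786 and 825 against 615, 405, 476 and 733 (0.72, SE 0.26). Cdt1, the licensing factor that loads the MCM helicase, measured 1300, 2000 and 1440 against 983, 1010, 820 and 1200 (0.64, SE 0.24). These 5 genes had ratios of group means between 1.57 and 2.33.

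The other 10 genes of that group spanned log2 fold changes of 0.37 to 1.69. Chaf1b, a subunit of the histone chaperone that packs newly made DNA, had means of 2970 ± 183 in KO (SD, n = 3) and 2260 ± 160 in WT (SD, n = 4). Pola2, a subunit of the primase complex, had 1660 ± 85.5 against 1160 ± 258, and Dut, which keeps uracil out of DNA, had 4900 ± 629 against 3630 ± 337, with the same n. Mis18a, which prepares centromeres for new CENP-A, had a log2 fold change of 0.54 (SE 0.19). Nek8, a kinase of the primary cilium, had the largest of the 15, with 318, 294 and 230 in KO and 73.3, 43.7, 174 and 96.4 in WT (1.69, SE 0.63). The remainder were Arl6ip6 (0.57, SE 0.17), the orphan receptor gene Gpr180 (0.84, SE 0.25), Cnot9 of the CCR4-NOT deadenylase (0.37, SE 0.13), Abhd13 (0.92, SE 0.33) and the glycosyltransferase gene Galnt1 (0.92, SE 0.35). Exons of Cenpu, Cnot9 and Timeless overlap a gene on the opposite strand. Cdt1 was the single one of the 15 in a gene list described below.

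Another 15 genes were picked in the same way with lower values in KO. Zfp35, a zinc finger gene, measured 369, 710 and 574 in KO and 1500, 1060, 1050 and 1140 in WT. Its means were 551 ± 171 (SD, n = 3) and 1190 ± 213 (SD, n = 4), with a log2 fold change of -1.14 (SE 0.27), and its unadjusted p was the smallest of both groups of 15. Elf4, an ETS factor whose loss is known to deepen stem cell quiescence in mice, measured 281, 379 and 366 in KO and 578, 619, 522 and 589 in WT (-0.76, SE 0.24). Pcgf1, a subunit of a Polycomb repressive complex, measured 41.4, 66.8 and 68.1 against 125, 121, 145 and 131 (-1.17, SE 0.38). Qrich1, a transcription factor of the stress response of the endoplasmic reticulum, measured 782, 981 and 1290 against 1570, 1880, 1340 and 1760 (-0.70, SE 0.19). Fbh1, a helicase that removes recombinase filaments from DNA, measured 553, 574 and 559 against 768, 828, 761 and 948 (-0.55, SE 0.19). Its neighbour on chromosome 2, Ankrd16, stood at 287 ± 35.0 in KO (SD, n = 3) and 490 ± 109 in WT (SD, n = 4).

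The largest differences among the lower genes were in genes of few reads. Zfp607b measured 0, 11.4 and 12.7 in KO and 108, 108, 112 and 79.4 in WT, a log2 fold change of -4.20 (SE 1.41). DESeq2 on the 7 libraries called it with an adjusted p of 0.0413, and limma did not (adjusted p = 1). Snx29, a sorting nexin gene, measured 1.09, 1.76 and 50.8 against 64.1, 160, 157 and 64.2 (-3.93, SE 1.18), so that KO replicate 3 lay near the lower WT libraries. The aldo-keto reductase gene Akr1c12 (-2.74), the dynein gene Dnah8 (-1.93), Katnal1 of the microtubule-severing katanins (-1.69), Zfp949 (-1.29), Uckl1 (-0.92) and the ubiquitin ligase gene Rnf216 (-0.83) were also among the 15. Exons of Dnah8, Katnal1, Qrich1, Rnf216 and Uckl1 overlap another gene. Zinc finger and aldo-keto reductase genes have close copies between which short reads may be split.

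Without WT replicate 4, the same rule, taken for 8 genes per direction, added Sva and 3 others. Icmt, the methyltransferase of prenylated proteins, had 506, 212 and 161 in KO and 98.9, 52.2, 117 and 179 in WT, so that WT replicate 4 overlapped KO. Adipor2, an adiponectin receptor, had means of 884 ± 73.7 (SD, n = 3) and 1300 ± 187 (SD, n = 4), and Zfp639 had 565 ± 181 and 874 ± 86.0. Their log2 fold changes over all 7 libraries were 1.33 (SE 0.45), -0.55 (SE 0.20) and -0.68 (SE 0.24).

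Cell cycle genes are of interest because LT-HSC divide rarely and Hopx marks slowly cycling cells elsewhere. All 26 genes of the DNA replication list had a positive log2 fold change, against 46.7% of all 17160 genes. Their median was 0.36, against -0.03 over all genes, and single genes ranged from 0.11 (Rrm1) to 0.79 (Orc1). None passed the adjusted test. At an unadjusted p under 0.05 there were 3 of the 26, all higher in KO, against 0.88% of all genes, with Cdt1 and Mcm4 among them. In 5 all KO libraries lay above all WT libraries, against 1.98% of all genes, with Cdt1, Mcm4, Gins4 and Tyms among them. These genes are read from the same libraries and can move together, so 26 genes are not 26 observations.

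By role, the replicative helicase was represented by Mcm4, which measured 3980, 4340 and 4280 in KO and 3370, 2510, 2880 and 3810 in WT (log2 fold change 0.43, SE 0.19). Gins4, a subunit that activates this helicase, measured 1430, 1450 and 1460 in KO and 1130, 1250, 1040 and 1410 in WT (0.27, SE 0.15). The KO values lay closer together than the WT values in both. Tyms, which makes thymidylate, had a log2 fold change of 0.36 (SE 0.18), with WT replicate 1 the nearest WT library at 2740, which is also the rounded value of the lowest KO library. The mean log2 level of the list was 10.77, 11.16 and 10.96 in the KO libraries and 10.86, 10.42, 10.26 and 10.78 in WT, so the groups overlapped.

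The library number ranges gave unequal answers for DNA replication. Within 101 to 106, 15 of the 26 genes were higher in KO replicates 1 and 2 than in WT replicate 1, with a median of 0.07. Within 115 to 120, 25 of 26 were higher in KO replicate 3 than in WT replicate 2, with a median of 0.53. Over all genes tested 48.1% were higher in KO in either range. Within females (KO replicates 1 and 2 against WT replicate 3) all 26 were higher, against 42.3% of all genes. WT replicate 3 had the lowest list mean of the 7 libraries (10.26). Within males (KO replicate 3 against the other 3 WT libraries) 24 were higher, against 52.5% of all genes. Without KO replicate 1, the library with the B-lineage transcripts, 26 of 26 genes kept a positive sign. That library had the lowest list mean of the KO libraries (10.77), so leaving it out raises the KO mean. The part of its B-lineage transcripts in this result was not tested.

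Promoters of these genes are known to bind E2F factors, which switch on replication genes at the start of the DNA synthesis phase. The E2F motif, in the forms GCGGGAAA and TTTGGCGC, was searched on both strands in windows from 250 bases before to 50 after each RefSeq start (GRCm38.p6). Of the 21 list genes matched by symbol 9 held one, or 42.9%, against 1.8% of the 27025 genes in the table. Stretches of 30 bases from 4 of them show the motif in capitals, on the strand of the gene, so that TTTGGCGC reads GCGCCAAA where it lies on the other strand. They come from chr8:122568035-122568064, chr8:75109349-75109378, chr1:128359734-128359763 and chr11:98908002-98908031. A match describes letters, not binding, in these cells. Cdt1 was among the 9 genes with a motif, and Mcm4, Gins4 and Tyms, whose groups also did not overlap, were not.
Cdt1: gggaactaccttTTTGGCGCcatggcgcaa
Mcm5: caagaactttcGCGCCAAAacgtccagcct
Mcm6: gattggacgggTTTGGCGCgaagtagctca
Cdc6: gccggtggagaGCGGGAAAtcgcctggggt
The factor E2f1 itself measured 300, 1030 and 628 in KO and 410, 459, 167 and 671 in WT, which overlap.

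Mitosis genes leaned the other way. Of 22 tested, 17 had a negative log2 fold change, against 9066 of all 17160 genes, with a median of -0.25. Of the 22, 1 gene, Kif23, had an unadjusted p under 0.05, where 1.78% of all genes were lower at that p. Kif23, a kinesin of the midbody, measured 747, 291 and 481 in KO and 1080, 879, 847 and 559 in WT (-0.80, SE 0.38). Ube2c, which feeds the anaphase-promoting complex, measured 1440, 315 and 634 against 2380, 2270, 1100 and 1340 (-1.35, SE 0.68). In both genes KO replicate 1 reached into the WT range. Mki67, the proliferation marker Ki-67, measured 1740, 1130 and 1600 in KO and 2620, 2280, 1210 and 1400 in WT (-0.28, SE 0.28). Knl1, a kinetochore scaffold, had the highest value of the list at 0.81 (SE 0.45). WT replicate 1 had the highest list mean of the 7 libraries (10.9) and KO replicate 2 the lowest (9.45). The lean depended on which libraries were set against each other: within females 5 of the 22 genes were lower in KO, and within males 20. Within library numbers 101 to 106 all 22 were lower, with a median of -0.96, and within 115 to 120, 19 were, with a median of -0.65. With sex as a covariate 11 of 22 were lower.

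Among 23 CDK inhibitor and cyclin genes, 15 had a positive log2 fold change, with a median of 0.08, and none had an unadjusted p under 0.05. Ccne1, the cyclin that drives entry into DNA synthesis, was the single one without overlap, where 1.98% of all genes had all KO libraries above. It measured 435, 516 and 204 in KO and 112, 133, 160 and 202 in WT (1.27, SE 1.42), with KO replicate 3 close to WT replicate 4. Cdkn1c (p57), the inhibitor most tied to stem cell quiescence, measured 233, 216 and 515 in KO and 508, 752, 434 and 421 in WT (-0.80, SE 0.64). In the 20 quiescence genes 9 had a positive sign, near the share over all genes. Btg1, an anti-proliferative gene of that list, had 904 ± 132 in KO (SD, n = 3) and 1180 ± 18.8 in WT (SD, n = 4), with no overlap (-0.40, SE 0.25).

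**Figure D4:**
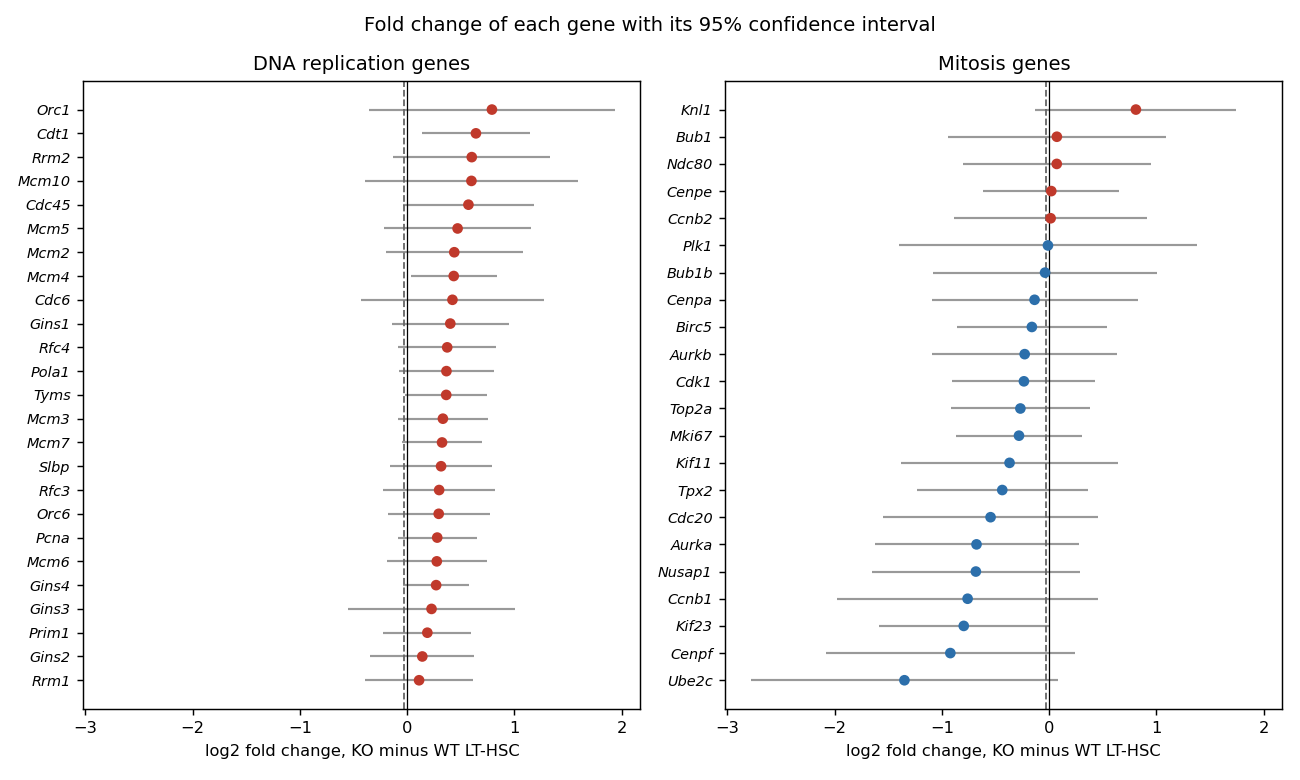
Log2 fold change (KO minus WT LT-HSC) with its 95% confidence interval for 25 of the 26 DNA replication genes and 22 mitosis genes, ordered by value; the dashed line is the median of all tested genes (-0.03). All replication genes drawn lie to the right of 0, between 0.11 and 0.79, and 17 of 22 mitosis genes lie to the left, down to -1.35.

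No stem cell identity gene passed the test. Of 20 HSC surface markers 15 had a negative log2 fold change, with a median of -0.15, and none had an unadjusted p under 0.05. Cd81, a tetraspanin that helps stem cells return to rest after regeneration, measured 5380, 5840 and 7060 in KO and 7230, 7810, 7710 and 7200 in WT. It was the single marker without overlap (-0.31, SE 0.16), with KO replicate 3 just under the lowest WT library. Over all genes, 3.02% had all KO libraries below all WT libraries. Itga6, the laminin receptor subunit CD49f, measured 536, 778 and 1150 against 1540, 1500, 1340 and 808 (-0.68, SE 0.36), and WT replicate 4 fell among the KO libraries. Kit, the stem cell factor receptor, measured 3020, 3440 and 3520 against 2890, 4780, 3950 and 3630, and the groups overlapped. Cd48 and Flt3, which mark more mature progenitors, ranged from 2.64 to 476 in KO and 83.3 to 324 in WT, and from 159 to 313 in KO and 166 to 863 in WT. The list mean was 10.5 to 10.7 in KO and 10.7 to 10.8 in WT.

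HSC transcription factors were split, with 9 of 22 positive and a median of -0.05. Mecom had means of 1110 ± 329 in KO (SD, n = 3) and 1180 ± 426 in WT (SD, n = 4), and Hlf 1930 ± 462 and 2030 ± 1040. Zfp36l2, an RNA-binding protein counted in that list, was the single member with non-overlapping groups, at 2660 ± 336 and 3620 ± 886. The Hox genes, which set the self-renewal programme of stem cells, leaned lower. A negative sign was found in 11 of 12, against 9066 of all 17160 genes, with a median of -0.52, and none had an unadjusted p under 0.05. Hoxa9 measured 607, 1060 and 1700 in KO and 1550, 1430, 2590 and 1480 in WT (-0.73, SE 0.40), with KO replicate 3 inside the WT range. Hoxa5 measured 249, 222 and 209 against 275, 382, 329 and 303 (-0.50, SE 0.63), without overlap. Its SE takes in the progenitors, with 132 ± 160 (SD) in KO MPP2, where the LT-HSC SDs were 20.7 in KO and 45.4 in WT. Hoxb6 measured 2.18, 23.7 and 37.2 against 41.2, 79.8, 74.3 and 18.7 (-1.72, SE 1.04). Hoxb3 was the exception, with 77.3 to 215 in KO and 74.1 to 112 in WT. Within 101 to 106, 7 of the 12 were lower in KO and within 115 to 120, 9.

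Of 14 genes for proteins tied to Hopx, 3 had no read in any of the 7 libraries and 11 were tested. Hdac2, the deacetylase of the Hopx complex in heart, measured 4770, 5110 and 5680 in KO and 5450, 4440, 4380 and 3970 in WT (0.19, SE 0.15). Srf ranged from 179 to 616 in KO and from 109 to 321 in WT. Epc1, which joins Hopx and SRF in muscle, had the single non-overlapping groups of the 11 partner genes. It measured 162, 382 and 238 against 572, 431, 417 and 502 (-0.96, SE 0.51). All KO libraries lay below all WT libraries in 3.02% of all genes. Of 20 SRF target genes 11 had a positive sign, with a median of 0.03, 0 had an unadjusted p under 0.05 in limma, and 0 had groups without overlap.

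Niche and cytokine genes gave few separations. Of 20 genes of the CXCL12 axis and adhesion 11 were positive, and Itgal, an integrin of leucocytes, had an unadjusted p under 0.05: 82.8, 170 and 29.0 in KO and 21.1, 47.5, 62.6 and 0 in WT. Its log2 fold change of 2.23 (SE 1.03) over all libraries was 0.89 without WT replicate 4. Cxcr4, the receptor that retains stem cells in marrow, ranged from 131 to 394 in KO and 212 to 507 in WT, and Cxcl12, its ligand from niche cells, from 0 to 20.2 and from 0 to 7.43. Of 22 cytokine receptors 7 were positive, with a median of -0.21. Von Willebrand factor (Vwf), a mark of platelet-biased stem cells, had 674, 1410 and 1380 in KO and 1270, 2070, 753 and 1680 in WT.

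No energy metabolism gene passed the test. Of 32 nuclear oxidative phosphorylation genes 28 had a positive log2 fold change, but the median was 0.09 and none had an unadjusted p under 0.05. Uqcrq of complex III lay higher in all KO libraries and Ndufa8 of complex I lower, with log2 fold changes of 0.22 (SE 0.18) and -0.17 (SE 0.14). Cox6c of complex IV measured 6510, 5740 and 5730 against 6160, 5020, 4750 and 4140. WT replicates 3 and 4 had the lowest list means (11.6 and 11.5), and in libraries numbered 101 to 120, which leave both out, 16 of 32 genes were positive. Of 20 glycolysis genes 5 were positive. Hk2, the inducible hexokinase, measured 255, 644 and 536 in KO and 652, 668, 1130 and 749 in WT (-0.81, SE 0.34). Pdk4, which holds pyruvate out of mitochondria, measured 0, 0 and 47.2 against 17.4, 61.7, 25.5 and 40.2 (-3.20, SE 1.07). Ppargc1b, a coactivator of mitochondrial genes, measured 188, 156 and 173 against 51.3, 71.2, 60.5 and 90.1 (1.35, SE 0.76), without overlap. Ribosomal protein genes had a median of 0.04, with 19 of 27 positive.

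No inflammation or stress gene passed the test. Of 25 interferon response genes 16 were positive. Isg15, a ubiquitin-like protein induced by interferon, measured 119, 152 and 123 in KO and 67.8, 62.7, 94.4 and 101 in WT (0.70, SE 0.38), without overlap. Of 22 TNF and NF-kB genes 8 were positive, and 2 had an unadjusted p under 0.05, both lower, against 1.78% of all genes. Birc3, an inhibitor of cell death, measured 284, 153 and 335 against 374, 403, 719 and 504 (-0.98, SE 0.37), and Cxcl2, a neutrophil chemokine, 0 in all KO libraries and 29.3, 48.4, 0 and 32.1 in WT (-3.90, SE 1.55). The heat shock gene Hspa1a measured 3170 in KO replicate 3, 4960 in WT replicate 2 and 3810 in WT replicate 3, and at most 52.6 in the other 4 libraries. Hspa1b divided the libraries the same way, with 7110 to 12300 in those 3 and 52.3 to 321 in the rest. The 3 libraries with high values include both of the range 115 to 120. Eif2ak3 (PERK), a sensor of unfolded proteins, measured 4.36, 73.8 and 161 in KO and 206, 122, 141 and 84.8 in WT (-1.73, SE 0.81).

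The remaining pathway lists held no gene that passed the test. Of 19 Wnt genes 10 were positive, of 23 TGF-beta and BMP genes 10, and of 15 Notch genes 9, with medians of 0.01, -0.01 and 0.29. Fzd4, a Wnt receptor, was the single gene of these 3 lists with an unadjusted p under 0.05 and had a log2 fold change of -3.50. Immediate early genes had 14 of 19 positive, p53 targets 11 of 20, antioxidant genes 12 of 21, BCL2 family genes 11 of 14 and chaperones 14 of 22. The mitochondrially encoded genes were evenly split, with 4 of 8 positive and a median of -0.02. Fatty acid oxidation genes, Ppargc1b and Pdk4 among them, had 14 of 21 positive.

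Several lineage genes were high in single libraries. Of 19 erythroid genes 17 had a positive log2 fold change, with a median of 0.79, and none had an unadjusted p under 0.05. KO replicate 2 (list mean 8.43) and WT replicate 3 (7.64) stood above the other 5 libraries (5.04 to 6.26), and without KO replicate 2 the count was 9 of 19. Klf1, the erythroid master factor, measured 358, 1480 and 164 in KO and 213, 246, 344 and 258 in WT. Of 21 megakaryocyte and platelet genes 14 were positive, with a median of 0.37. Ppbp and Gp9, of platelet granules and surface, had all KO libraries above all WT libraries, as did 1.98% of all genes. Ppbp had 251 to 398 against 79.4 to 234, and Gp9 1230 to 1270 against 975 to 1090. The single member with an unadjusted p under 0.05 was lower: Mpig6b, an inhibitory platelet receptor, was 0 in all KO libraries and in WT replicate 1, and 17.1, 19.1 and 21.4 in WT replicates 2, 3 and 4. Pf4, a platelet chemokine, measured 2720, 13800 and 27000 in KO and 12600, 14200, 990 and 8050 in WT, which overlap. Of 12 B cell genes 11 were positive, with the B-lineage values of KO replicate 1 named above. Ms4a3, a gene of granulocyte and monocyte progenitors, measured 136, 148 and 92.6 against 37.6, 28.5, 31.8 and 69.6, without overlap. Prtn3, another marker of these progenitors, measured 1460, 1360 and 1540 against 931, 1430, 2900 and 2340, which overlap. The summed level of their 5 markers was 1610 to 1630 in KO and 1020 to 3090 in WT. Irf8, the factor of monocyte and dendritic cells, measured 13.1, 0 and 76.2 against 177, 19.0, 97.6 and 109 (-2.94, SE 1.18). Fabp4, a fatty acid carrier of endothelium, was at most 0.878 in KO and 1.83, 21.8, 233 and 19.6 in WT (-4.26, SE 1.38). Of the 5 endothelial markers, Cdh5 and Stab2 were at most 0.916 and 4.24 in all 7 libraries, while Pecam1 had 217 to 594, Emcn 208 to 812 and Kdr 13.2 to 175. The summed level of the 5 was 562 to 1220 in KO and 753 to 1460 in WT. Among the other lists, 6 of 17 mature neutrophil, 7 of 20 granulocyte progenitor, 8 of 18 monocyte, 4 of 13 dendritic, 12 of 17 lymphoid priming, 3 of 10 T and NK, 3 of 8 mast cell, 5 of 13 endothelial and 4 of 9 stromal genes were positive. The part of other cells in these values was not tested.

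**Figure D5:**
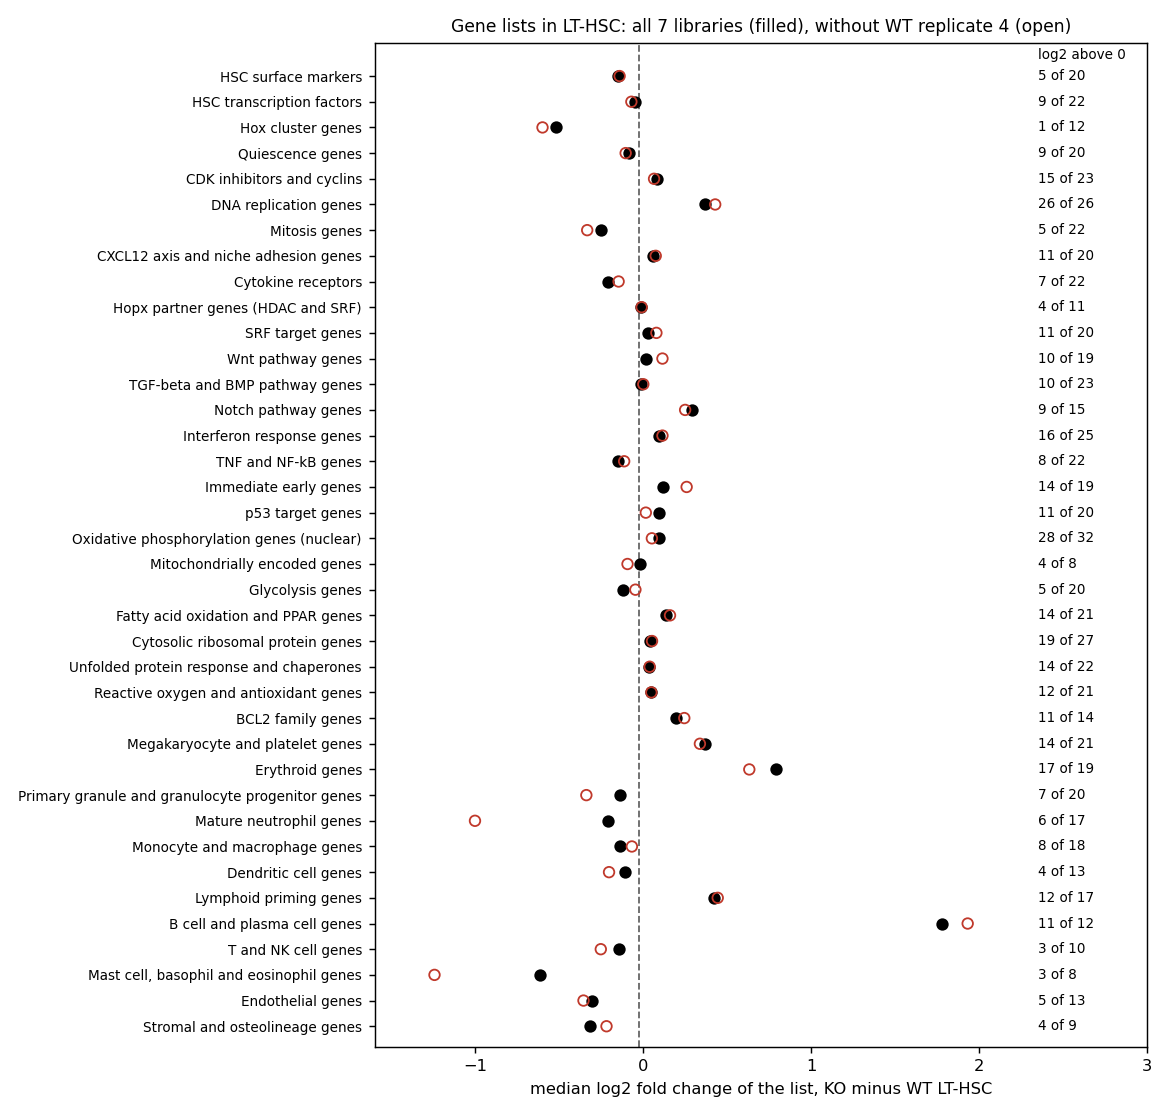
Median log2 fold change (KO minus WT LT-HSC) of 38 gene lists over all 7 libraries (filled) and without WT replicate 4 (open), with the number of tested genes above 0 at the right; the dashed line is the median of all genes (-0.03). DNA replication stands at 0.36 with 26 of 26 genes above 0, Hox genes at -0.52 with 1 of 12, and no gene of any list passed the test.

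Whether the knockout acted differently in LT-HSC than in progenitors was tested directly, as the KO effect in LT-HSC minus the mean of the KO effects in MPP2 and MPP3. Limma called 0 of 17160 genes (0.0%), with an adjusted p of 1 throughout, and 388 genes (2.26%) had an unadjusted p under 0.05. With voom weights the call was also 0. Libraries of consecutive numbers often shared the genotype across different populations, not always all 3 (6 runs with 16 libraries). Whether these came from the same animals is not stated in the labels. With these runs as a random block (correlation 0.201) limma called 0 genes, with 569 at an unadjusted p under 0.05. Hopx differed by 0.79 (SE 1.34) and Sva by 0.39, so neither was shown to differ between stem cells and progenitors. Among genes with a mean value of at least 50 over the 20 libraries, 8 were taken by smallest p. Icmt had a difference of 2.17, with KO effects of 1.33 in LT-HSC, -0.98 in MPP2 and -0.68 in MPP3. Snx29 had -5.09, from -3.93, 2.37 and -0.06, and Zfp35 had -1.24, from -1.14, 0.17 and 0.03. Zfp759 was the second zinc finger gene, and Ppargc1b, Lrsam1, Pip4k2a and Rbm12b1 completed the 8.

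DNA replication genes had a median KO effect of 0.36 in LT-HSC, -0.02 in MPP2 and 0.12 in MPP3. In MPP2 12 of the 26 were positive, against 40.9% of all genes, and in MPP3 21, against 54.0%. In all 26 the difference between LT-HSC and the progenitors was positive, against 51.1% of all genes, with a median of 0.25. None of the 26 had an unadjusted p under 0.05 in that test, and 2 had with runs of library numbers as a random block, so the KO effects are not shown to differ. The signs of these genes are read from the same libraries. The Hox genes had medians of -0.52, 0.00 and -0.33 in the same order, mitosis genes -0.25, -0.12 and -0.13, and erythroid genes 0.79, 0.35 and 2.30.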

How the data were processed

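Per the submitters' processing notes, reads were aligned with TopHat2 2.1.1 to GRCm38, counted with HTSeq 0.11.2 and scaled with DESeq (version not stated there). The deposited values are a signal: gene counts divided by 1 size factor per library. All values were whole multiples of the library's smallest one (100% within 1e-06), so whole reads were recovered for the count tests. The annotation release and the strand setting are not stated there. Of 45706 identifiers 45143 matched GENCODE M21.

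Limma 3.58.1 (R 4.3.3; trend, robust) was fitted to log2(value + 1) over 6 group means of 20 libraries (14 residual degrees of freedom) for 17160 genes kept by edgeR's filter, with Benjamini-Hochberg adjustment and a threshold of 0.05. EdgeR 4.0.16 and DESeq2 1.42.0 were run on recovered reads of the 7 LT-HSC libraries. The scripts were tested on simulated data. The groups, the 39 gene lists and the rules for naming genes were chosen with earlier results of these data known. Named were Hopx; the 15 genes of smallest p per direction with a mean of at least 50 and non-overlapping groups; the 8 per direction without WT replicate 4; up to 4 genes per list; the 8 of smallest p in the test of the difference; and fixed look-ups. Sva, Hopxos, library-specific lineage genes and other list members were named after their values were seen. Alternatives changed the pseudocount, filter, weights, covariates, tool and libraries. Values of 3 genes are not reported here.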

Additional observations from a re-analysis of the deposited data

Results flagged for a closer look

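In the 4 WT LT-HSC libraries, 10 of 150 gene values and list means had 1 library far from the other 3, by a gap that passed Dixon's 95% critical value on the log2 scale, where chance gives about 1 in 20. Hopx was 0 in WT replicate 4 and 30.2 to 58.9 in the other 3. Zfp607b was 79.4 in the same library and 108 to 112 in the others. In WT replicate 3, Hoxa9 was 2590 there and 1430 to 1550 elsewhere, Cxcl2 was 0 and elsewhere 29.3 to 48.4, and Cxcl12, Dntt and Vpreb3 were 7.43, 23.3 and 2.12 with 0 in the other WT libraries, where any read at all passes the test. Its erythroid list mean was 7.64 (log2), with 5.04 to 5.45 in the others. Ndufa8 was 2800 in WT replicate 2 and 2690 to 2700 in the others, and the fatty acid oxidation list mean was 9.05 in WT replicate 1, with 9.31 to 9.36 in the others.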

How the results depend on the processing

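The count of called genes, 1 with limma, was 0 with the 7 LT-HSC libraries alone, with edgeR under either normalization, with voom weights, with libraries numbered 101 to 120, and with edgeR or limma on the LT-HSC libraries without WT replicate 4. It was 6 with DESeq2 (Sva, and lower Etl4, Arhgef26, Poln, Zfp607b and 5730409E04Rik), 2 with a pseudocount of 16 (lower Pdgfrl and Arhgef26, without Sva) and 3 with no filter. Leaving out 1 library gave 0 to 2 calls. The cause was not tested. Hopx kept its direction in all 22 alternatives, with log2 fold changes of -5.37 to -3.41 when 1 library was left out. Hopx passed only in limma over all populations without WT replicate 4, and not in limma on the LT-HSC libraries alone without it (adjusted p = 0.996). The difference from progenitors kept 0 calls in its 15 alternatives. The 26 positive DNA replication genes numbered 24 to 26. Lower mitosis genes numbered 11 of 22 with sex as a covariate, and positive oxidative phosphorylation genes 16 of 32 in libraries 101 to 120. Positive erythroid genes numbered 11 of 12 tested in the 4 fits of the 7 libraries, where fewer genes passed the filter, 10 of 11 and 8 of 11 with edgeR and limma without WT replicate 4, and 9 to 19 when 1 library was left out. None of 78 genes followed by fold change turned its sign, but many of them were picked for groups that did not overlap, so this is no test. Another 33 genes, most of them given by level alone, were kept out of that count. Of these, 21 turned in some alternative, with Rrm1 among them (4 of 22). No paired analysis was run, because replicate numbers follow accession order and the labels name no pairs of KO and WT animals. With the library number range as a covariate, Sva passed (adjusted p = 0.0426, limma). A random block for runs of consecutive library numbers of 1 genotype, chosen after seeing the data, kept 1 call, Sva (adjusted p = 0.0141, limma), and 26 positive replication genes. Genes with few reads are limited by depth, with 3 reads as the floor.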
